A study of Homo sapiens with 8 samples.

Results

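The genes described here are 9 members of one signalling neighbourhood, taken by name from a list: the receptor genes EGFR, ERBB2, ERBB3 and MET, the ligand genes TGFA, HBEGF, AREG and EREG, and ERRFI1, which encodes an intracellular inhibitor of the EGF receptor. All 9 were among the 16829 genes of the deposited tables, and all 9 were among the 14157 genes that had enough reads to be tested. EREG passed that filter only through the SW480 libraries with the non-targeting hairpin. AREG and EREG, 2 of the 9, had under 100 counts in every library, whereas the other 7 had between 196 and 17749.

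RNA sequencing was done on 8 libraries of 2 human colorectal cancer cell lines in which CYP1B1, a cytochrome P450 enzyme that oxidises steroid hormones and polycyclic aromatic hydrocarbons, was raised or lowered. RKO was represented by 2 control libraries and 2 libraries with CYP1B1 overexpression. SW480 was represented by 2 libraries with a non-targeting hairpin (shNT) and 2 with a hairpin against CYP1B1 (shCYP1B1). Both lines were kept in DMEM with 10% fetal bovine serum and received lentivirus, and the labels name a single CYP1B1 hairpin. The labels also carry a time for the virus treatment whose unit could not be interpreted, and it was not used. They do not give the promoter of the overexpression vector or say whether cells were cloned or pooled. Nor do they say that the libraries of a group were grown as separate cultures. The p-values then measure no more than the spread between those libraries, and that spread may be technical.

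The receptors EGFR, ERBB2 and ERBB3 are members of a family of tyrosine kinases that pair with each other when a ligand binds. ERBB2 has no known ligand of its own and ERBB3 has little kinase activity, so both signal mainly as partners. The ligands are made as membrane-anchored precursors that metalloproteases such as ADAM17 release, and the activated receptors feed the RAS to ERK and PI3K to AKT pathways. ERRFI1, also called MIG6, is induced by this signalling and binds the EGFR kinase to switch it off. MET, the receptor of hepatocyte growth factor, uses many of the same pathways and is a known route around EGFR blockade in colorectal cancer. In the intestine, EGFR signalling drives the proliferation of crypt epithelium.

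Each library held between 31550173 and 34921085 counts. CYP1B1 stood at 0.686 and 0.701 CPM (counts relative to library size, with TMM scaling throughout) in the RKO controls against 437 and 519 with overexpression. In SW480 it stood at 1.44 and 2.20 CPM with shNT against 0.367 and 0.301 with the hairpin, so both manipulations went the labelled way. The SW480 levels rest on few counts, 50 and 76 with shNT and 12 and 10 with the hairpin. CYP1B1 was thus low in SW480 before the hairpin. The 2 RKO overexpression libraries stood further apart than any other pair. Among genes of at least 5 CPM, 52 of 10272 differed over 2-fold between them, against 5 of 10303 in the RKO controls, 5 of 10922 with shNT and 3 of 10953 with shCYP1B1. Of 10 markers of colorectal epithelium, 4 were above 1 FPKM (fragments relative to transcript length and library size) in both RKO groups, namely EPCAM, KRT8, KRT18 and CDX2, while CDH1, which encodes E-cadherin, was at most 0.0503 FPKM and KRT20 was at 0. SW480 had 7 of the 10 above 1 FPKM with shNT and 6 with shCYP1B1. The summed epithelial level was 154 to 177 FPKM in RKO and 3019 to 3283 FPKM in SW480. Of 8 stromal markers, COL1A1 and ACTA2 were above 1 FPKM, with sums of 4.34 to 17.3 FPKM, and 5 endothelial markers summed to at most 0.325 FPKM. Of 8 immune markers CD68 alone was above 1 FPKM in RKO, with sums of 393 to 461 FPKM, and the sums in SW480 were 6.54 to 16.9 FPKM. There CD14 was also above 1 FPKM in both groups, LYZ with shNT (1.10 FPKM, against 0.434 with the hairpin) and CD3D, a T-cell marker, with the hairpin (1.07 FPKM, against 0.175 with shNT). PTPRC, the pan-leukocyte marker, was at most 0.0414 FPKM in every library. The part of these markers in the results was not tested.

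The promoters of 4 members are printed: ERRFI1, HBEGF and MET, 3 of the 5 members that fell in RKO, and AREG. The windows of TGFA and EGFR, which also fell, are not printed. AREG, a ligand gene, was picked for the cyclic AMP response element in its promoter, so its presence there is no result. Each window holds 250 bases before and 50 after the annotated start, read 5′ to 3′ on the gene's own strand, from RefSeq on GRCh38.p14. RefSeq windows were at hand for 8 of the 9 members. Capitals mark GGGCGG, the core of a GC box bound by SP family factors, or TGACGTCA, the cyclic AMP response element, on either strand.
ERRFI1: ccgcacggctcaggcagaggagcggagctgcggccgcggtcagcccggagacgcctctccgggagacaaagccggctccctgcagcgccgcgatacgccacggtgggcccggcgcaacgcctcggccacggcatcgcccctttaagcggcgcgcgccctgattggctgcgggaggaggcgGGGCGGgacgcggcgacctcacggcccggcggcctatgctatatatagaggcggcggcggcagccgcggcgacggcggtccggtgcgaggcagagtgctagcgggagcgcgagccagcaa
HBEGF: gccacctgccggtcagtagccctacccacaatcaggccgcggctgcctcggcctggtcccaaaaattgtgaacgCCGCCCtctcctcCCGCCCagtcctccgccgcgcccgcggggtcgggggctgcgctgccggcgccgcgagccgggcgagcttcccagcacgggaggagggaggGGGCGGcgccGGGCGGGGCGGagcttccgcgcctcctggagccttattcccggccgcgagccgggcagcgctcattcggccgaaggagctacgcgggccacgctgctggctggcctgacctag
MET: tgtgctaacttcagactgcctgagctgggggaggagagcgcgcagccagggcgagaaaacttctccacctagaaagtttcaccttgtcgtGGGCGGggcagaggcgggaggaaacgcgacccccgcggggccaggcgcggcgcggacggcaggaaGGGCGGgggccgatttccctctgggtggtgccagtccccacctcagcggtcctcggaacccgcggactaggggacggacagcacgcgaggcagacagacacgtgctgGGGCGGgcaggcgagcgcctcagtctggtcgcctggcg
AREG: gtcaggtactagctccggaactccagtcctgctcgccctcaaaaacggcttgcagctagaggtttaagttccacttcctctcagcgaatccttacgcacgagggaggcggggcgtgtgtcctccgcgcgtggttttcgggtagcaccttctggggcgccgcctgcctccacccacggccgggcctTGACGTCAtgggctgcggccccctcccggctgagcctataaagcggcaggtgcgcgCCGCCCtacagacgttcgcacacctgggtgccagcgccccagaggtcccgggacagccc
The ERRFI1 window lies at chr1:8026260-8026559 on the minus strand, the HBEGF window at chr5:140346554-140346853 on the minus strand, the MET window at chr7:116671946-116672245 on the plus strand, and the AREG window at chr4:74444886-74445185 on the plus strand. HBEGF held 5 copies of GGGCGG, a pair of which overlapped, MET held 3, and ERRFI1 and AREG held 1 each. That motif was present in 45.0% of all 35116 promoter windows of this length, searched on both strands. TGACGTCA was found in AREG, its first base at position -65 from the start, and in 1.85% of all windows. AREG also held TATAAA at position -29, a motif of 11.5% of all windows. None of the 4 windows held TGACTCA, an AP-1 motif present in 4.95% of all windows, and no other matches overlapped. Among the members' windows not printed, a second window of EGFR held 2 copies of TGACTCA. GC content was 74.7% for ERRFI1, 75.0% for HBEGF, 69.3% for MET and 66.3% for AREG, against a median of 58.7% over all windows. A match is a description of letters and not a bound site.

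The first comparison asked what CYP1B1 overexpression did to these genes in RKO. MET, HBEGF, ERRFI1, TGFA and EGFR were lower, by 1.25-fold for EGFR up to 3.08-fold for ERRFI1. Of the 9 members 5 fell and 0 rose at an adjusted p under 0.05 (edgeR quasi-likelihood test, Benjamini-Hochberg over all 14157 genes). Over all genes tested, 13.8% were called lower and 13.8% higher. The members were chosen with earlier results of these data known, so their counts are descriptions and not tests of enrichment. By DESeq2 0 members rose as well, and by edgeR 1 member, ERBB2, passed in that direction without adjustment. The median log2 change was -0.72 over the members and 0.00 over all genes tested. The member median includes AREG and EREG, whose fitted values were the lowest and rest on under 100 counts in every library. Among the other 7 members the middle value was that of TGFA, -0.39. The count of 5 became 7 without overexpression replicate 1 (with ERBB2 called higher and AREG lower), 4 without overexpression replicate 2, and 3 without either control library or with the RKO libraries fitted alone. The number called over all genes moved in the same settings, from 3907 of 14157 to 5629 of 14555 without overexpression replicate 1 and 4569 of 14556 without replicate 2. It was 2254 of 14538 without control replicate 1, 1784 of 14545 without control replicate 2 and 2294 of 12068 with the RKO libraries alone.

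MET stood at 166 and 161 CPM in the RKO controls and at 108 and 91.5 CPM with CYP1B1 overexpression. Both overexpression libraries lay below both controls. In bulk RNA, fewer expressing cells and less RNA per cell cannot be told apart. The fitted log2 change was -0.72 (SE 0.10, adjusted p = 5.26e-04), or 1.64-fold lower, and MET kept its call in all 17 alternative analyses.

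HBEGF, the heparin-binding ligand of EGFR, showed 88.5 and 85.8 CPM in the controls and 60.3 and 42.2 CPM with overexpression. The groups did not overlap, and replicate 2 lay lower than replicate 1. The log2 change was -0.77 (SE 0.15, adjusted p = 0.00337), or 1.70-fold lower, and it was called in all 17 alternatives. TGFA, the ligand transforming growth factor alpha, had 36.4 CPM in both controls and 30.7 and 24.9 CPM with overexpression. Its log2 change was -0.39 (SE 0.11, adjusted p = 0.0189). The TGFA call was lost when control replicate 1 (adjusted p = 0.0912) or control replicate 2 (adjusted p = 0.101) was left out. It was also lost when overexpression replicate 2 was left out (log2 change -0.25, adjusted p = 0.0541) and with the RKO libraries alone (adjusted p = 0.0710).

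ERRFI1 was the most abundant member per transcript length in the RKO controls, at 77.0 ± 2.56 FPKM (SD, n = 2). It stood at 504 and 519 CPM in the controls and at 256 and 75.9 CPM with CYP1B1 overexpression. Replicate 1 was thus 2.00-fold and replicate 2 6.73-fold below the control mean, the widest disagreement between libraries of one group among the 7 abundant members. The fitted log2 change was -1.62 (SE 0.37, adjusted p = 0.00750). It was -2.75 without overexpression replicate 1 and -0.998 without overexpression replicate 2, both still called, and the call was lost without control replicate 2 (adjusted p = 0.0582). HBEGF, MET and TGFA were also lower in overexpression replicate 2 than in replicate 1, whereas EGFR was higher there.

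EGFR was at 78.2 and 71.4 CPM in the RKO controls and at 56.1 and 64.0 CPM with CYP1B1 overexpression. The groups did not overlap, and the log2 change was -0.32 (SE 0.08, adjusted p = 0.0140). This call was lost without control replicate 1 (adjusted p = 0.127) and with the RKO libraries alone (adjusted p = 0.0974). ERBB2 showed 91.8 and 93.3 CPM against 102 and 111 CPM with overexpression. Its log2 difference of 0.21 (SE 0.07) did not pass the test (adjusted p = 0.0521), although it did without overexpression replicate 1 (log2 difference 0.27, adjusted p = 0.00273). ERBB3 had 66.1 and 59.5 CPM against 63.1 and 56.5 CPM, which overlap, with a log2 difference of -0.07 (SE 0.10, adjusted p = 0.645).

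AREG and EREG, which encode amphiregulin and epiregulin, were close to the limit of detection in RKO. AREG had 25 and 26 counts in the controls and 13 and 0 counts with CYP1B1 overexpression. From the summed counts the level with overexpression was 0.247 of the control level (95% exact interval 0.123 to 0.462, which covers counting error only). The edgeR test, which includes the spread between the libraries, did not call it (log2 difference -2.01, SE 1.03, adjusted p = 0.175). Without overexpression replicate 1 it was called (adjusted p = 0.00350), on a library with 0 counts. EREG had 2 counts in each control and 0 in each overexpression library, both at or under the floor of 3 counts, so no fold is given. The windows of these genes, both on chromosome 4, both hold TATAAA, EREG at position -32 and AREG at position -29. The motif is not particular to them: the second window of EGFR holds it at positions -146 and -36, and 11.5% of all windows hold it.

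**Figure D1:**
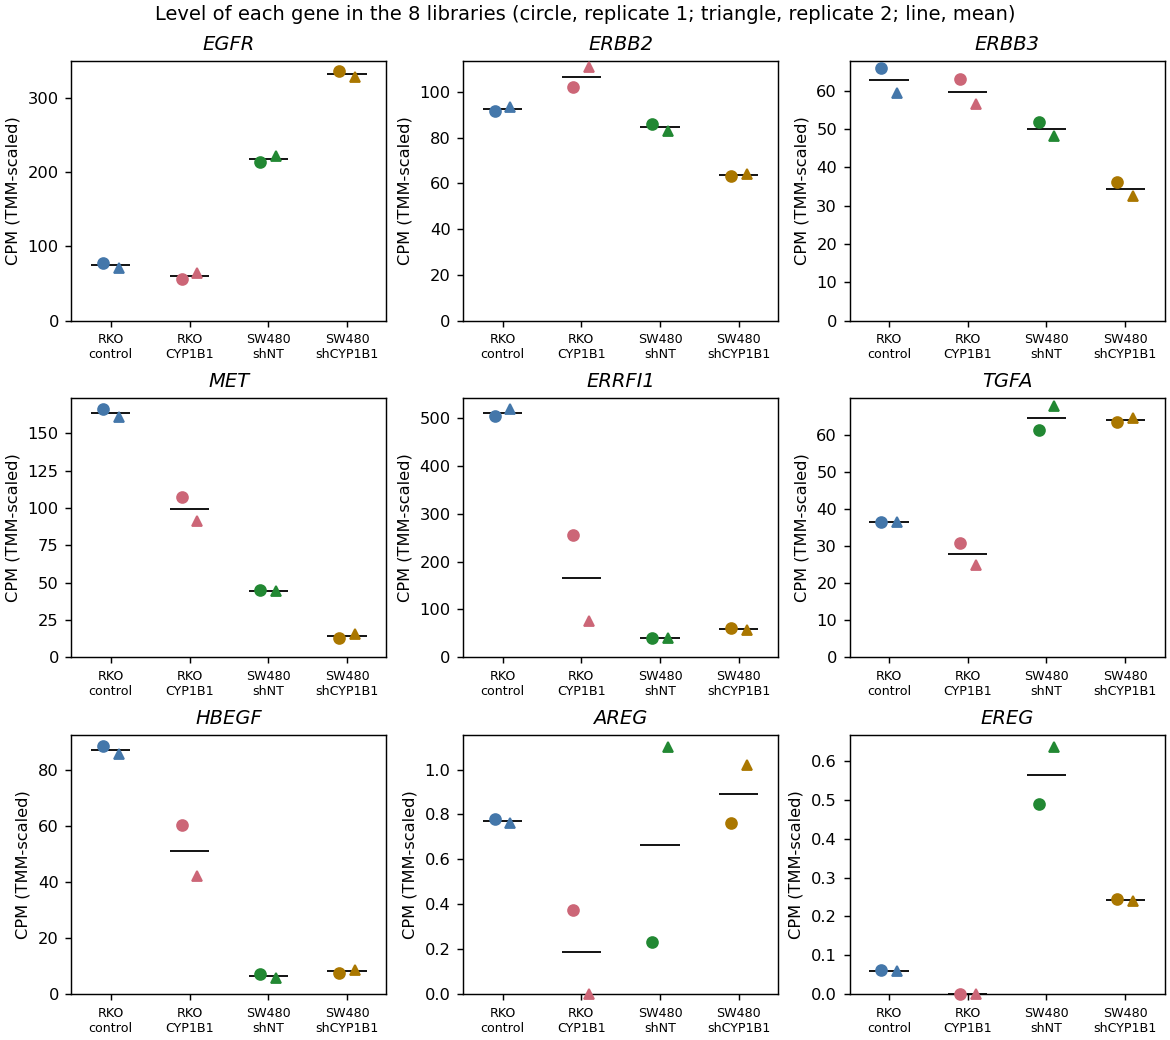
Level of each of the 9 genes in each library, in TMM-scaled CPM on a linear axis from 0, by group; circles are replicate 1, triangles replicate 2 and lines the group means. In RKO the overexpression libraries lie below both controls for EGFR, MET, ERRFI1, TGFA and HBEGF, and in SW480 the MET libraries with the hairpin lie at 12.6 and 15.5 against 45.0 and 44.1.

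The second comparison asked what the CYP1B1 hairpin did in SW480. MET, ERBB2 and ERBB3 were lower and EGFR was higher, and the other 5 members did not pass the test. Of the 9 members 1 rose and 3 fell, where 25.3% of all genes tested were called higher and 25.3% lower, so the members' count is near the background. The median log2 change was -0.01 over the members and 0.00 over all genes. Several epithelial markers were lower in the same libraries: EPCAM was at 84.3 FPKM with shNT and 14.3 with the hairpin (means of 2 libraries), KRT19 at 338 and 173, CDX2 at 17.9 and 9.57, and VIL1 at 1.76 and 0.187. KRT8, at 1053 and 1225 FPKM, KRT18, at 1579 and 1846, and CDH1, at 1.30 and 1.89, were higher. Their part in the members' values was not tested.

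MET showed the largest change of any member in SW480 that passed the test. It stood at 45.0 and 44.1 CPM with shNT and at 12.6 and 15.5 CPM with shCYP1B1. The log2 change was -1.67 (SE 0.11, adjusted p = 7.64e-07), or 3.18-fold lower, and all 17 alternatives called it, with values from -1.82 to -1.32. MET therefore fell both where CYP1B1 was raised in RKO and where it was lowered in SW480. Each of those results comes from separate libraries.

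EGFR stood at 214 and 222 CPM with shNT and at 336 and 329 CPM with the CYP1B1 hairpin. The groups were well apart, with a log2 change of 0.61 (SE 0.08, adjusted p = 7.64e-05), or 1.52-fold higher. ERBB2 went from 86.1 and 83.1 CPM to 63.5 and 64.0 CPM (log2 change -0.41, SE 0.07, adjusted p = 6.98e-04). ERBB3 went from 51.8 and 48.3 CPM to 36.3 and 32.4 CPM (log2 change -0.54, SE 0.10, adjusted p = 8.71e-04). For all these genes the 2 groups did not overlap, and each was called in all 17 alternatives.

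ERRFI1 had 40.2 CPM in both shNT libraries and 61.3 and 57.6 CPM with the CYP1B1 hairpin. The groups did not overlap, yet the log2 difference of 0.56 (SE 0.38) missed the threshold (adjusted p = 0.237). For each gene the fit shares its estimate of spread over all 4 groups, the divergent RKO overexpression pair included. The part of that spread in the missed call was not tested. ERRFI1 was called higher with the SW480 libraries fitted alone (log2 difference 0.57, adjusted p = 4.65e-12). In that fit 9071 of all 13846 genes tested were called, against 7167 of 14157 in the main fit. ERRFI1 was also called when either RKO overexpression library was left out, where more of all genes were called too. HBEGF had 7.04 and 5.68 CPM against 7.52 and 8.60 CPM (log2 difference 0.34, SE 0.18, adjusted p = 0.144). It too passed when overexpression replicate 1 or 2 was left out (adjusted p of 0.0205 and 0.0186), but not with the SW480 libraries alone (adjusted p = 0.0965).

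TGFA showed 61.1 and 67.8 CPM with shNT against 63.3 and 64.4 CPM with shCYP1B1, which overlap (log2 difference -0.01, SE 0.10, adjusted p = 0.931). AREG had 8 and 38 counts with shNT and 25 and 34 counts with shCYP1B1, so the shNT libraries alone spanned the whole range. EREG had 17 and 22 counts against 8 in each hairpin library. The ratio of summed EREG counts was 0.430 (95% exact interval 0.224 to 0.788, counting error only), and the edgeR test did not call it (adjusted p = 0.182). Since EREG entered the test through the shNT libraries, where it was high, its lower level with the hairpin supports nothing.

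**Figure D2:**
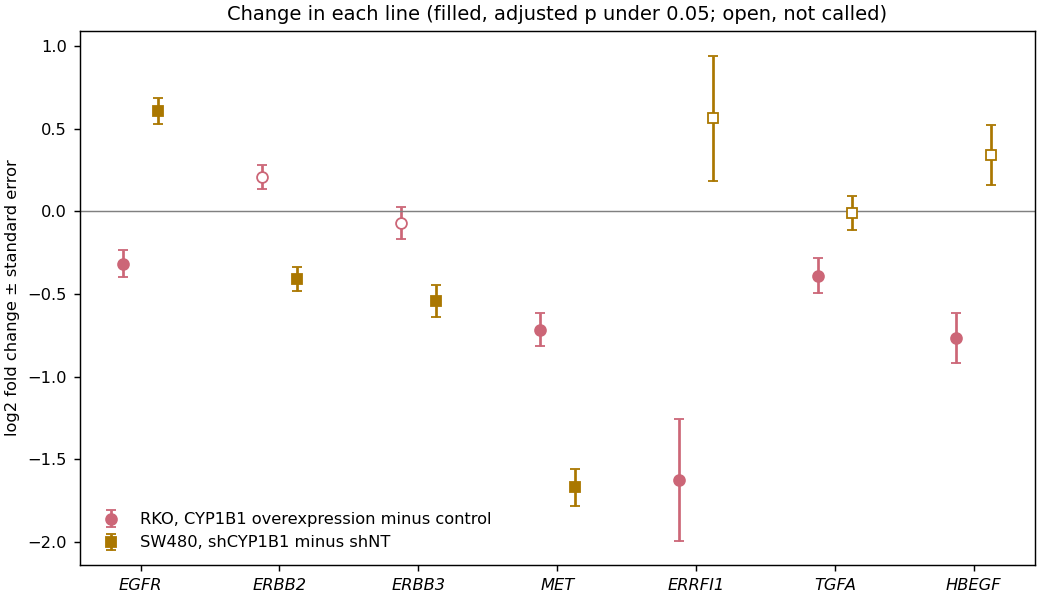
Fitted log2 change with its standard error (edgeR, 2 libraries a group) for the 7 abundant genes, in RKO with CYP1B1 overexpression and in SW480 with the CYP1B1 hairpin; filled symbols passed an adjusted p under 0.05. MET lies below 0 in both lines, at -0.72 and -1.67, and EGFR lies at -0.32 in RKO and 0.61 in SW480.

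The difference between the lines was tested on the effect of higher against lower CYP1B1, that is overexpression minus control in RKO less shNT minus shCYP1B1 in SW480. It uses the same libraries as the comparisons above. Line cannot be told apart here from the kind and size of the manipulation. CYP1B1 itself changed by 9.42 on the log2 scale with overexpression in RKO and by -2.44 with the hairpin in SW480. Of the 9 members 3 were called, all lower in RKO than in SW480, namely MET, ERBB3 and TGFA, and 0 were called higher. EGFR passed in that direction without adjustment and was called by DESeq2 (adjusted p = 0.0373). Over all genes tested 21.6% were called lower and 21.0% higher. Counting both directions together, 6028 of 14157 genes were called, a larger share than the members' 3 of 9. In the lower direction alone, the members' 3 of 9 was the larger share. The count of 3 became 7 without overexpression replicate 1, where the number over all genes rose from 6028 of 14157 to 7142 of 14555. MET differed by -2.39 (SE 0.15, adjusted p = 1.76e-06) and ERBB3 by -0.61 (SE 0.14, adjusted p = 0.00432), each called in all 16 alternatives. TGFA differed by -0.40 (SE 0.15, adjusted p = 0.0474) and was called in 5 of 16 alternatives. EGFR, lower with higher CYP1B1 in both lines, differed by 0.29 (SE 0.11, adjusted p = 0.0584) and was called in 4 of 16 alternatives. ERRFI1 differed by -1.06 (SE 0.52, adjusted p = 0.128), with -2.19 without overexpression replicate 1 and -0.43 without replicate 2, both called.

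The members' levels were also compared between the control groups of the 2 lines. Comparing SW480 shNT with RKO control, in which line and vector cannot be told apart, 3 of the 9 members were higher in SW480 and 4 lower, where 41.2% of all genes were called higher and 35.6% lower. The members' share is thus near that of all genes. The libraries are those already given. HBEGF was lower in SW480 by 3.78 on the log2 scale (13.7-fold, SE 0.18, adjusted p = 2.51e-09), ERRFI1 was lower by 12.7-fold (adjusted p = 5.54e-06) and MET by 3.67-fold (adjusted p = 1.11e-08). EGFR was 2.92-fold higher in SW480 (log2 difference 1.54, SE 0.08, adjusted p = 7.93e-09) and TGFA 1.77-fold higher (log2 difference 0.82, SE 0.10, adjusted p = 1.85e-05). ERBB3 was 1.25-fold lower (adjusted p = 0.00927), a call lost without RKO control replicate 1 (adjusted p = 0.0920) or shNT replicate 2 (adjusted p = 0.0687). ERBB2 (adjusted p = 0.118) and AREG (adjusted p = 0.842) did not pass. EREG was called higher at 17 and 22 counts against 2 and 2, but had entered the test through those same shNT libraries. That call was lost without RKO control replicate 1 (adjusted p = 0.0559) or replicate 2 (adjusted p = 0.0617).

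Levels of different genes were compared per transcript length, as FPKM means ± SD over 2 libraries. Among the receptors in the RKO controls, MET led at 23.7 ± 0.268 FPKM, followed by ERBB2 at 15.8 ± 0.377, ERBB3 at 11.4 ± 0.712 and EGFR at 7.06 ± 0.373. With CYP1B1 overexpression ERBB2 led at 18.0 ± 1.03 FPKM, followed by MET at 14.3 ± 1.64, ERBB3 at 10.7 ± 0.851 and EGFR at 5.60 ± 0.510. In RKO, therefore, MET and ERBB2 changed places and EGFR stayed last. In SW480 with shNT the order was EGFR at 19.6 and 20.4 FPKM in the 2 libraries, ERBB2 at 14.0 ± 0.304, ERBB3 at 8.78 ± 0.413 and MET at 6.27 ± 0.0606. With the hairpin it was the same, with EGFR at 29.6 ± 0.485 FPKM, ERBB2 at 10.2 ± 0.0446, ERBB3 at 5.85 ± 0.471 and MET at 1.91 ± 0.277. Within each of the 4 groups, no library of one receptor overlapped a library of its neighbour in the order.

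The balance between receptors within a library moved accordingly. MET over EGFR, as a ratio of FPKM, was 3.26 and 3.46 in the RKO controls and 2.94 and 2.20 with overexpression. In SW480 it was 0.322 and 0.305 with shNT and 0.0573 and 0.0721 with shCYP1B1. EGFR over ERBB2 was 0.471 and 0.423 in the RKO controls and 0.303 and 0.318 with overexpression. It was 1.38 and 1.48 with shNT and 2.93 and 2.84 with shCYP1B1 in SW480. In each case the groups within a line did not overlap.

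Among the ligands, HBEGF led in RKO at 37.9 ± 0.382 FPKM in the controls and 22.0 ± 5.53 FPKM with overexpression, and TGFA followed at 8.52 ± 0.0927 and 6.43 ± 0.945 FPKM. In SW480 TGFA led at 14.6 ± 1.12 FPKM with shNT and 14.1 ± 0.150 FPKM with the hairpin, with HBEGF at 2.68 ± 0.396 and 3.30 ± 0.310 FPKM. HBEGF over TGFA was thus 4.51 and 4.38 in the RKO controls but 0.214 and 0.156 with shNT. AREG was at most 0.890 FPKM and EREG at most 0.138 FPKM in any library. ERRFI1 over EGFR was 10.3 and 11.6 in the RKO controls, 7.28 and 1.89 with overexpression, and between 0.279 and 0.299 in all 4 SW480 libraries. ERRFI1 and EGFR thus kept nearly one proportion in SW480, with and without the hairpin.

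**Figure D3:**
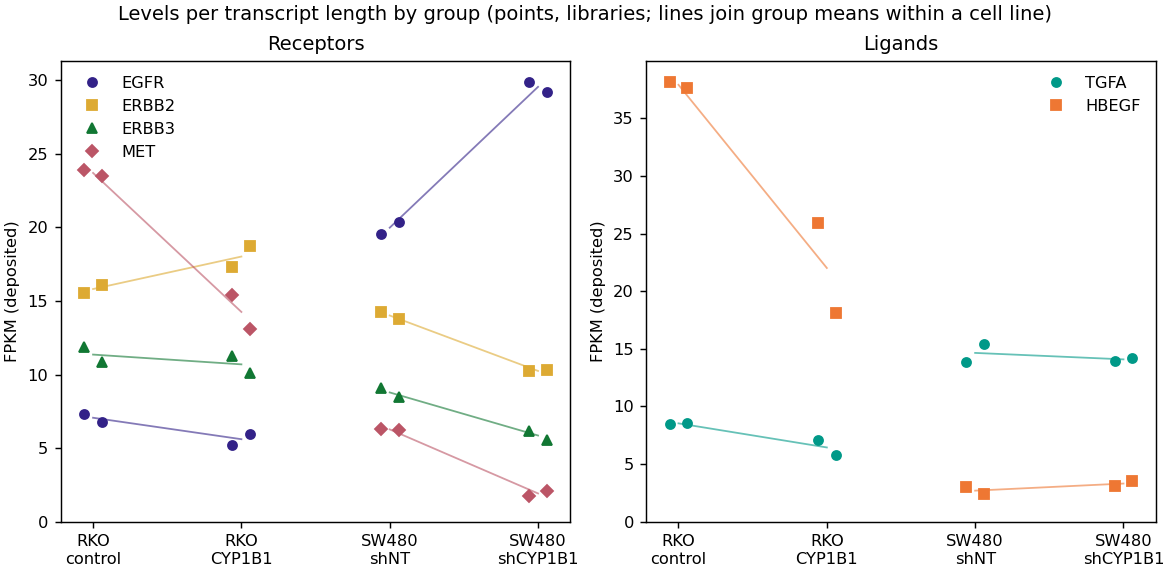
Deposited FPKM of the receptor genes (left) and of TGFA and HBEGF (right) by group, on linear axes from 0; each point is a library and lines join group means within a cell line. MET falls from first to second place in RKO with overexpression, EGFR leads in SW480, and the order of TGFA and HBEGF is opposite in the 2 lines.

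Of 8 further receptors and ligands of the family, ERBB4 and NRG3 were not analysed here. Of the 4 that were tested, 0 were called in RKO by edgeR, with 0 at an unadjusted p under 0.05, and 2, NRG4 and BTC, were called lower in SW480 with the hairpin. NRG2, a neuregulin, had 1338 counts over the shNT pair and 1275 over the hairpin pair, but 1 count over the RKO control pair and 3 over the overexpression pair. NRG4, a neuregulin for ERBB4, had 117 counts over the shNT pair and was called lower with the hairpin (log2 change -3.76, SE 0.81, adjusted p = 0.00251). BTC, betacellulin, had 9 counts over the shNT pair and 0 with the hairpin, too few for a fold. EGF had between 8 and 33 counts a pair, EPGN between 2 and 6, and NRG1 between 0 and 19. HGF, the ligand of MET, had 17 and 31 counts in the RKO controls, 12 and 3 with overexpression, and 0 in all 4 SW480 libraries, where 3 counts is the floor.

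The genes that process the ligands and pass on the signal were counted in lists chosen by function. Earlier results of these data were known at that choice, so the list counts are descriptions and not tests of enrichment. Of 13 tested genes of ligand shedding and trafficking, 2 rose and 2 fell in RKO, near the 13.8% of all genes in each direction. ADAM17, the main sheddase of these ligands, fell (log2 change -0.80, SE 0.07, adjusted p = 7.68e-05), as did ADAM9 (log2 change -0.67), while ADAM15 rose (log2 change 0.53). In SW480 6 rose and 1 fell, against 25.3% in each direction. ADAM17 rose there (log2 change 0.37, SE 0.07, adjusted p = 0.00140), as did TIMP3, a secreted inhibitor of ADAM17, which went from 68.6 and 67.9 CPM to 228 and 219 CPM (log2 change 1.71, SE 0.09, adjusted p = 2.74e-07). TIMP3 was at most 0.438 CPM in RKO. ADAM19 (log2 change 0.58) and CD9 (log2 change 0.57) also rose in SW480, and of the 6 that rose ADAM17 changed least. The list median was -0.01 in RKO and 0.13 in SW480, against 0.00 over all genes tested in both.

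Of 33 adaptors and negative regulators of the receptors, 2 rose and 11 fell in RKO (median log2 change -0.15), where 13.8% of all genes were called in each direction. SOS2, an exchange factor for RAS, fell most (log2 change -1.07, SE 0.12, adjusted p = 1.53e-04), and RNF41, a ubiquitin ligase for ERBB3, fell as well (log2 change -0.74, SE 0.13, adjusted p = 0.00201). The count of 13 called became 20, with 7 higher and 13 lower, without overexpression replicate 1, where the number over all genes also rose, from 3907 of 14157 to 5629 of 14555. In SW480 11 rose and 6 fell (median log2 change 0.08), against 25.3% of all genes in each direction. LRIG1, which promotes degradation of EGFR family receptors, was at 75.7 and 76.5 CPM with shNT and 156 and 149 CPM with the hairpin (log2 change 1.00, SE 0.08, adjusted p = 2.18e-06). RNF41 rose in SW480 (log2 change 0.67, SE 0.13, adjusted p = 0.00146), while PTPRK, a receptor phosphatase, fell (log2 change -0.76, SE 0.10, adjusted p = 6.61e-05).

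In the list of RAS, RAF, MEK and ERK genes, 2 of 15 rose and 2 fell in RKO, and 3 rose and 4 fell in SW480, near the shares of all genes called in each direction (13.8% in RKO and 25.3% in SW480). BRAF, the RAF kinase, fell in both lines (log2 change -0.60 in RKO with adjusted p = 4.22e-04, and -0.68 in SW480 with adjusted p = 5.58e-05). NF1, which inactivates RAS, fell in both as well (log2 change -0.82 in RKO and -0.55 in SW480). MAP2K2, a MEK kinase, rose in both (log2 change 0.28 and 0.45), as did RPS6KA1, a kinase activated by ERK (log2 change 0.52 and 0.50). Of 21 output and feedback genes of ERK signalling, 1 rose and 12 fell in RKO (median log2 change -0.33), and 9 rose and 5 fell in SW480 (median log2 change 0.17). The number called in RKO was 15 without overexpression replicate 1 and 12 without replicate 2.

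EGR1, an immediate-early transcription factor, was at 377 and 349 CPM in the RKO controls and at 160 and 52.0 CPM with overexpression (log2 change -1.78, SE 0.34, adjusted p = 0.00316). DUSP6, a phosphatase that inactivates ERK, was at 85.4 and 83.3 CPM against 48.2 and 30.1 CPM (log2 change -1.11, SE 0.16, adjusted p = 5.65e-04). In both genes overexpression replicate 2 lay below replicate 1, as for ERRFI1. CCND1, which encodes cyclin D1, was the gene of this list that rose in RKO (log2 change 0.43, SE 0.09, adjusted p = 0.00394). In SW480 DUSP5 rose (log2 change 1.05, SE 0.11, adjusted p = 2.00e-05) and SPRED2 rose (log2 change 0.81, SE 0.07, adjusted p = 3.09e-06), whereas ETV1 (log2 change -1.19) and SPRY2 (log2 change -0.81) fell.

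Of 13 tested genes of MET's ligand, activation and partners, 1 rose and 1 fell in RKO, against 13.8% of all genes in each direction. Without overexpression replicate 1, where more of all genes were called too, 3 rose and 4 fell. In SW480 3 rose and 6 fell (median log2 change -0.13), against 25.3% of all genes in each direction. The 6 include HPN, a protease with 86 counts over the shNT pair, 7 over the hairpin pair and 0 in RKO, which entered the test only through the shNT libraries, so its fall supports nothing. ST14, or matriptase, a protease that activates hepatocyte growth factor, fell with the hairpin from 176 and 170 CPM to 73.4 and 76.5 CPM (log2 change -1.21, SE 0.08, adjusted p = 4.83e-07). MST1R, the closest relative of MET, fell (log2 change -0.83, SE 0.11, adjusted p = 9.82e-05), and DCBLD2, a neuropilin-like membrane protein, fell (log2 change -2.54, SE 0.12, adjusted p = 1.36e-07). CD44, a co-receptor of MET, rose in SW480 (log2 change 1.20, SE 0.07, adjusted p = 3.27e-07). Of 16 PI3K and AKT genes, 2 rose and 1 fell in RKO and 6 rose and 2 fell in SW480, against 13.8% and 25.3% of all genes in each direction. The RKO count became 4 and 1 without overexpression replicate 1.

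**Figure D4:**
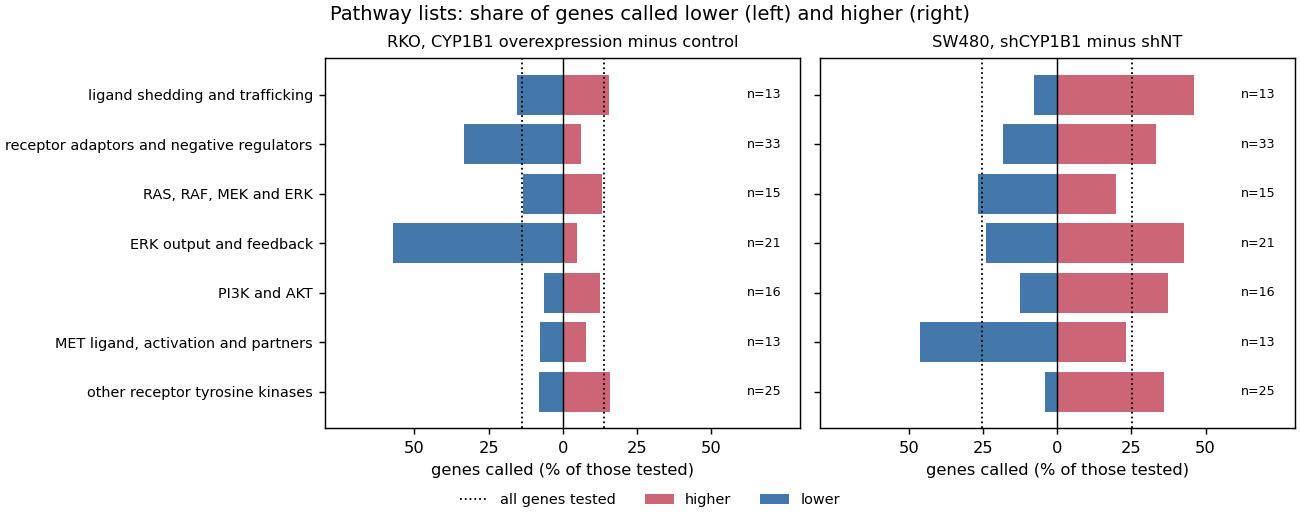
Share of the tested genes in each list that were called lower (left of 0) or higher (right of 0), in % of those tested, for RKO with overexpression and SW480 with the hairpin; dotted lines mark the share of all genes called in each direction. In RKO the ERK output list has 12 of 21 genes called lower against 13.8% of all genes. In SW480 the list of ligand shedding and trafficking has 6 of 13 called higher against 25.3%. The lists were chosen with earlier results of these data known, so the shares are descriptions.

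In the annotation of GRCh38 used for positions (GENCODE 29), EGFR lies on chromosome 7 from 55019021 to 55211628 and MET on the same chromosome from 116672390 to 116798386, both on the plus strand. ERRFI1 lies on chromosome 1 from 8004404 to 8026308 and HBEGF on chromosome 5 from 140332843 to 140346631, both on the minus strand. EREG and AREG lie near each other on chromosome 4, with 56382 bp and 1 annotated gene, AC021180.1, between them. ERBB2 shares 571 exon bases with MIEN1 and 194 with PGAP3, both on the opposite strand. Reads there cannot be told apart unless counting used strand, which is not given in the sources used here. MIEN1 was not called in RKO (log2 difference 0.18, adjusted p = 0.165) or SW480 (log2 difference 0.16, adjusted p = 0.144). PGAP3, with 14 to 160 counts a library, was not called in RKO (log2 difference 0.84, adjusted p = 0.201). Nor was it called in SW480 (log2 difference -0.77, adjusted p = 0.117). Both PGAP3 values have the sign of those of ERBB2, and its part in the ERBB2 values was not tested. EGFR shares 186 exon bases with EGFR-AS1 and ERRFI1 shares 155 with AL034417.4, both antisense. ERBB3 shares 31 exon bases with AC034102.2 on the same strand, which counting by strand would not separate.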

How the data were processed

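Libraries were prepared from TRIzol-extracted RNA with a stranded TruSeq mRNA kit, per the labels' protocols. For all 8 libraries the authors deposited raw counts, and separately FPKM values, for each gene. The submitters' processing notes name GRCh38.p13. Aligner, counter and use of strand: not given in the sources used here. Counts were whole numbers, and the FPKM of all 13932 genes with 20 counts in a library fitted 1 length per gene within 0.1%.

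Counts were tested with edgeR 4.0.16 in R 4.3.3 (quasi-likelihood test, TMM scaling, filterByExpr with a minimum count of 10 and total of 15), with all 8 libraries in a single fit of 4 groups and 4 residual degrees of freedom. A standard error is the log2 change divided by the square root of F. P-values were adjusted by Benjamini-Hochberg over 14157 genes, with a threshold of 0.05. With 2 libraries against 2, an exact permutation test of a single value cannot go below p = 0.333 (two-sided). Levels are TMM-scaled CPM, and levels between genes are compared in FPKM. The pipeline was tested on simulated counts with the same dispersion for every gene and group. That setting leaves out the wider spread of the RKO overexpression pair, so it cannot show how the fit handles that pair.

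Alternatives were RLE scaling, library size alone, no filter, a minimum of 1 CPM in at least 4 libraries, limma 3.58.1 on log2 FPKM with pseudocounts of 1 and 0.1, DESeq2 1.42.0, a replicate block, each library left out and each line alone. The members and lists were chosen with earlier results of these data known. Genes named from a list are up to 3 per direction with the largest change among those called with at least 5 CPM in a group. Further family genes, HGF, HPN, ADAM17 in SW480 and genes sharing exons with a member are named regardless.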

Additional observations from a re-analysis of the deposited data

Results flagged for a closer look

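The effect of higher against lower CYP1B1 differed between the lines for 3 members, by the interaction term of the edgeR fit with 2 libraries a group. Line cannot be told apart in it from the kind and size of the manipulation, overexpression in RKO and a hairpin in SW480. Over all genes tested 21.6% were called lower and 21.0% higher in this term. Counting both directions together, 6028 of 14157 genes were called, a larger share than 3 of 9. In the lower direction alone, where all 3 lie, the members' share was the larger. For MET the difference was -2.39 on the log2 scale (adjusted p = 1.76e-06): both overexpression libraries lay below both RKO controls, and both shNT libraries, which have more CYP1B1, lay above both hairpin libraries. For ERBB3 the difference was -0.61 (adjusted p = 0.00432), with overlapping libraries in RKO and separate groups in SW480. For TGFA the difference was -0.40 (adjusted p = 0.0474), with separate groups in RKO and overlapping libraries in SW480, and it was called in 5 of 16 alternatives.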

How the results depend on the processing

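Of the members' values under the alternatives, 530 kept their direction and their side of the threshold, 24 gained a call, 22 lost it and 8 changed sign. The number of members called in RKO was 3 with the RKO libraries alone and ranged from 3 to 7 when a library was left out. For the difference between lines that range was 2 to 7, for SW480 4 to 6 and for the comparison of lines 5 to 8. Sign changes were all in values not called as reported. With a library left out, AREG ranged from -0.29 (without shNT replicate 1) to 1.94 in SW480 and from -1.73 to 0.50 (without shNT replicate 1) between lines. ERBB3 in RKO ranged from -0.15 to 0.0090 (without control replicate 1), with 0.0082 without overexpression replicate 2. TGFA in SW480 ranged from -0.075 to 0.068 (without shNT replicate 2), with 0.0081 without hairpin replicate 1, and was 0.013 under RLE scaling and under DESeq2. The cause was not tested. Same-numbered libraries did not deviate together (correlations from -0.03 to 0.06). The labels do not say what the number means, and these values cannot show whether such libraries shared a batch. With a replicate block the number of members called was 5 in RKO, 4 in SW480, 2 for the difference between lines and 7 for the comparison of lines. Depth limits AREG and EREG, since 3 counts correspond to 0.0897 CPM in overexpression replicate 2.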

Other observations

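Receptor tyrosine kinases outside the family were counted in a further list, also chosen with earlier results of these data known. Of 25 tested, 4 rose and 2 fell in RKO with CYP1B1 overexpression, and 9 rose and 1 fell in SW480 with the hairpin, against 13.8% and 25.3% of all genes in each direction. The RKO count became 5 and 5 without overexpression replicate 2. FGFR3, a fibroblast growth factor receptor, rose in both lines, with a log2 change of 0.82 (SE 0.15, adjusted p = 0.00202) in RKO and 2.29 (SE 0.17, adjusted p = 1.56e-06) in SW480. INSR, the insulin receptor, rose in SW480 (log2 change 1.03, SE 0.09, adjusted p = 4.21e-06) and IGF1R, its relative, rose in RKO (log2 change 0.60, SE 0.14, adjusted p = 0.00911). NTRK2, a neurotrophin receptor, fell in SW480 (log2 change -1.77, SE 0.23, adjusted p = 8.25e-05).

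The genes whose pattern over the 8 libraries lay closest to each member were found by the root mean square difference of centred log2 CPM among genes of at least 5 CPM. This is a description, since the 8 libraries form 4 groups and share each group's change. NLK (0.07) and ITGA3 (0.12) lay closest to EGFR, MED16 (0.04) and AP1B1 (0.05) to ERBB2, and ADD1 and SRCIN1 (both 0.08) to ERBB3. CCNJL and UBE3D (both 0.08) lay closest to TGFA, and ANGEL2 and C6orf132 (both 0.19) to MET. For ERRFI1 the closest were ATF3 and GADD45A (both 0.29), and for HBEGF C9orf72 (0.21) and RIPK2 (0.22). The closest genes to AREG and EREG are not given weight because those members lie near the floor.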
